A study of Bos taurus with 2 samples.

Results

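Aminoacyl-tRNA synthetases of the cytosol and of the mitochondria were compared in the longissimus thoracis (LT) muscle of Japanese Black fetal calves. The list held 35 genes, 19 for cytosolic or shared enzymes (symbols ending in 1, with *FARSA* and *FARSB*) and 16 for mitochondrial enzymes (symbols ending in 2). Probe accessions were matched to 30 of them, 18 cytosolic or shared and 12 mitochondrial, with 78 of the 43652 probes and 30 of the 26714 genes and transcripts on the array. *VARS1*, *EARS2*, *LARS2*, *PARS2* and *YARS2* had no matched probe and were not analysed here. The fetuses were carried to 8.5 months of gestation by cows inseminated with male-sorted semen of the same sire. The dams, 5 in the low-nutrition (LN) and 6 in the high-nutrition (HN) group, received 60% and 120% of their nutritional requirement, respectively, from before conception through gestation. Each group was measured once, on 1 one-color Agilent array loaded with RNA pooled from 4 fetuses, those with the lowest bodyweight of the LN group and those with the highest bodyweight of the HN group. Diet and the choice of fetuses by bodyweight therefore cannot be told apart, the spread between fetuses is not known, and neither a test nor a p-value could be had.

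Aminoacyl-tRNA synthetases join each amino acid to its transfer RNA before the ribosome can use it. The cytosolic enzymes supply the translation of nuclear-encoded mRNA, whereas a separate nuclear-encoded set, imported into mitochondria, supplies the translation of the few proteins encoded by mitochondrial DNA, all of them parts of the respiratory chain or of ATP synthase. *GARS1* and *KARS1* each encode an enzyme of both compartments, and *EPRS1* encodes 1 protein that charges both glutamate and proline. Uncharged transfer RNA activates the kinase GCN2, and the transcription factor ATF4 made in this response is known to raise the transcription of many cytosolic synthetase genes.

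The spot signals were background-corrected intensities. Their log2 values were normalized by the quantile method, and a probe counted as detected if either array showed it well above background by the scanner software's mark. Each gene was given the average of the log2 LN/HN ratios of its detected probes, so that a positive value is a higher signal in the LN pool. The SD of the log2 ratio was 0.085 for a single spot, from 42 probes printed in several spots and measured on both arrays. The software's own error estimate of the log2 ratio of a synthetase probe was 0.20 (median). Neither error includes any difference among fetuses. Genes were counted past a threshold of 0.32 on the log2 scale in either direction, at which the brighter signal exceeds the dimmer by 25%, and also past 2-fold.

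The software marked 74.5% of the spots of the HN array and 70.9% of those of the LN array as well above background, and no spot was saturated. All 8 of the 10 skeletal muscle markers that were matched, such as *ACTA1* and *CKM*, were detected, and their summed signal differed by a log2 LN/HN of -0.06. One by one, 6 had a lower signal for LN, none past the threshold (*CKM* -0.24, *TNNT3* -0.22). *TNNC2* took the same value on both arrays, which quantile normalization gives to signals of equal rank whatever their size. *MYH8*, a myosin of developing muscle, was past the threshold on the higher side (0.35). All 8 neutrophil markers were past the threshold on the higher side in the LN pool, with a summed signal of 3772 for HN and 6468 for LN. All 6 fibroblast markers were higher as well, 4 of them past the threshold (350887 and 446195). In contrast, 6 of 7 macrophage markers (9927 and 7945) and 5 of 6 endothelial markers (33180 and 25733) were lower in the LN pool. Of 7 erythroid markers, 5 were detected and 4 of these were lower, with a summed signal of 39142 for HN and 36615 for LN. Of 5 adipocyte markers, *ADIPOQ* was not matched and *LEP* was not detected, and the summed signal of the detected ones was 461 and 570. In RNA of whole muscle, fewer cells of a type and less RNA per cell cannot be told apart. The part of these cell types in the synthetase values was not tested.

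The cytosolic and mitochondrial enzymes differed in their distribution. Among the 18 cytosolic or shared genes, 13 had a higher signal in the LN pool, against 49.3% of all 19554 genes with a fold. Of the 18, 8 were past the threshold on the higher side (44.4%), whereas 8.85% of all genes were. None of the 18 was past it on the lower side, against 9.11% of all genes. The balance of all genes depended on the scaling, with 6.0% on the higher and 13.6% on the lower side after subtraction of the 75th percentile (cytosolic 6 and 0) and 7.39% and 11.4% without normalization (cytosolic 7 and 0). Their median log2 LN/HN was 0.19, with a range from -0.25 for *RARS1* to 0.81 for *GARS1*. The 12 mitochondrial genes were divided evenly, with 6 higher and 6 lower in the LN pool, 1 past the threshold on the higher side and 1 past the threshold on the lower side. Their median was -0.01, as compared with -0.003 for all genes, and they ranged from -0.51 for *VARS2* to 0.43 for *HARS2*. The cytosolic median thus exceeded the mitochondrial one by 0.20 on the log2 scale. The classes overlapped, because 10 of the 18 cytosolic genes lay within the threshold, and the SD within a class was 0.30 for the cytosolic and 0.23 for the mitochondrial genes. No synthetase was past 2-fold in either direction, a change found in 0.711% of all genes as a higher signal and in 0.286% as a lower signal. These genes were measured on the same pair of arrays and are not replicates of the diets.

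**Figure D1:**
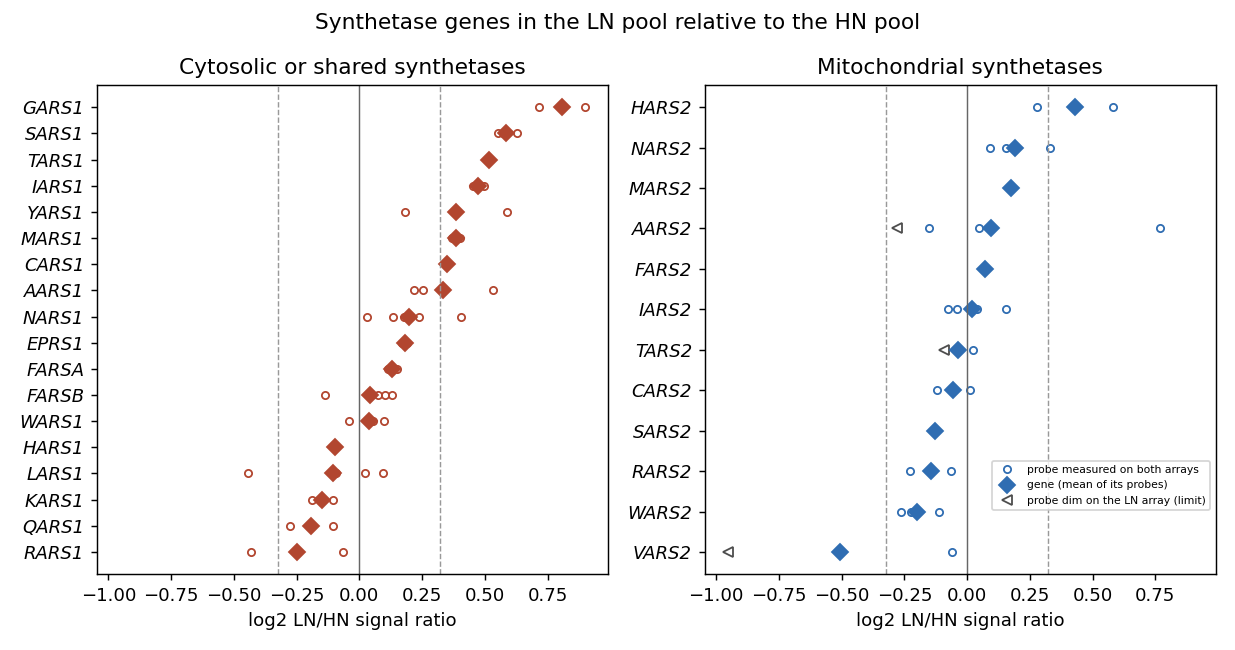
Log2 LN/HN of each synthetase gene with a value (filled diamonds) and of its probes (open circles, or triangles where the LN side was not well above background), for 18 cytosolic or shared genes on the left and 12 mitochondrial genes on the right. Dashed lines mark the threshold, a log2 ratio of 0.32, which 8 cytosolic genes passed on the higher side and none on the lower, and which *HARS2* and *VARS2* passed on opposite sides among the mitochondrial genes.

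The counts were also made over single probes measured on both arrays, several of which belong to the same gene. Of 45 such probes for cytosolic or shared enzymes, 33 had a higher signal in the LN pool, 15 were past the threshold on the higher side and 2 past the threshold on the lower side. Of 24 probes for mitochondrial enzymes, 13 were higher, 3 were past the threshold on the higher side and none was past the threshold on the lower side. Among all 30639 probes measured on both arrays, 8.59% were past the threshold on the higher side and 8.31% past the threshold on the lower side. The median log2 LN/HN was 0.15 for the cytosolic and 0.02 for the mitochondrial probes.

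**Figure D2:**
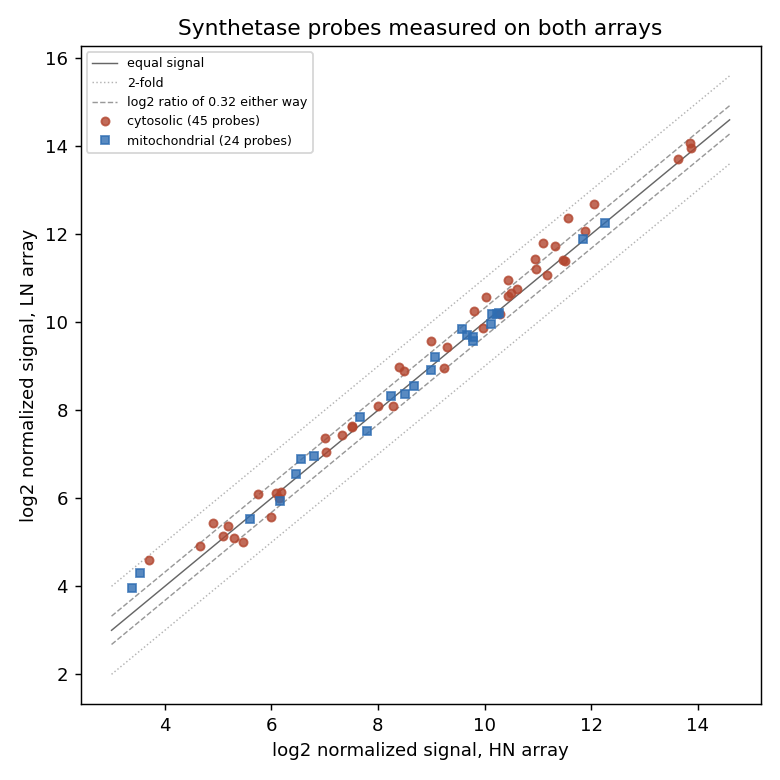
Log2 normalized signal on the LN array (vertical axis) against that on the HN array (horizontal axis) for the 45 cytosolic and 24 mitochondrial synthetase probes well above background on both arrays, with lines of equal signal, of the threshold and of 2-fold. Of the cytosolic probes 15 lie above the upper threshold line, both dim and bright, and no probe of either class lies beyond 2-fold.

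*GARS1*, which charges glycine in both the cytosol and the mitochondria, had the highest value of the list. Its 3 probes had log2 signals of 11.56, 11.09 and 3.71 for HN, and all were higher for LN (12.37, 11.81 and 4.60). The log2 LN/HN of these probes lay between 0.72 and 0.90, with a mean of 0.81 ± 0.09 (SD, 3 probes), a 1.75-fold difference that ranked 287 among the 19554 genes. Both bright probes of the gene and its dim probe therefore gave nearly the same ratio.

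*SARS1*, the cytosolic enzyme for serine, was the next highest. Of its 3 probes, the brighter ones had log2 signals of 10.03 and 12.06 for HN and 10.58 and 12.69 for LN, and the dimmest read 9.58 for LN, higher than for HN by 0.57. The mean log2 LN/HN was 0.58 ± 0.04 (SD, 3 probes), and the probes differed from each other by less than the SD of a spot. *TARS1*, which charges threonine, has 1 probe on the array, which read 10.45 for HN and 10.97 for LN on the log2 scale. Its log2 LN/HN was 0.52 (1.43-fold), and no second probe was at hand to check it. *IARS1*, the isoleucine enzyme, had log2 signals of 9.81 and 10.94 for HN and of 10.26 and 11.44 for LN. Both probes were past the threshold, with log2 LN/HN values of 0.45 and 0.50 and a mean of 0.48. These probes of *SARS1*, *TARS1* and *IARS1* all had signals far above the lowest log2 signal marked as well above background (2.27 for HN, 2.82 for LN).

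The other 4 cytosolic genes past the threshold lay closer to it or had probes that differed. *MARS1*, which charges methionine, the amino acid at the start of newly made proteins, averaged 0.38 over 2 probes (0.37 and 0.40). The other probe of this gene was well above background on the HN array only and gave no fold. *YARS1*, the tyrosine enzyme, had a mean of 0.39, but its brighter probe was at 0.59 (8.39 for HN, 8.98 for LN) and its dimmer probe at 0.18 (5.19 and 5.38). Its value therefore rests mainly on 1 of 2 probes. *CARS1*, which charges cysteine, had 1 probe, which read 5.76 for HN and 6.11 for LN, a log2 LN/HN of 0.35. *AARS1*, the alanine enzyme, was just past the threshold with 0.34 (1.26-fold). Of its 3 probes the brightest, at 13.86 for HN and 14.08 for LN, gave 0.22, and both dim ones gave 0.25 and 0.53. With the brightest probe alone, *AARS1* was short of the threshold.

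The remaining cytosolic genes lay within the threshold. *NARS1*, the asparagine enzyme, had a ratio of 0.20 over 5 probes, all of them higher in the LN pool (0.03 to 0.41), and its brightest probe alone (0.41) was past the threshold. *EPRS1* had 0.18 from 2 probes that gave 0.17 and 0.19. Both subunits of the phenylalanine enzyme were near equal in the pools, with 0.13 for *FARSA* (0.11 and 0.15) and 0.04 for *FARSB*, whose 4 probes lay between -0.14 and 0.13. *WARS1*, the tryptophan enzyme, which is also known as a target of interferon gamma, had 0.04 from 3 probes (-0.04 to 0.10), but 0.36, past the threshold, when its remaining probe, not well above background on either array, was included. On the lower side, *RARS1*, the arginine enzyme, had a log2 LN/HN of -0.25, with a bright probe at -0.06 and a dimmer one at -0.43. *QARS1*, the glutamine enzyme, had -0.19, and its 3 probes were all lower in the LN pool (-0.28 to -0.10). Similarly, both probes of *KARS1* were lower (-0.19 and -0.11, mean -0.15), although this gene, like *GARS1*, serves both compartments. *LARS1*, the leucine enzyme, had -0.11 from 4 probes, of which the one at -0.44 stood apart from the others (-0.09 to 0.09). *HARS1*, which charges histidine, had -0.10 from 1 probe.

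The 5 cytosolic genes with a lower signal in the LN pool belonged mostly to 1 group of enzymes. In animal cells, the enzymes encoded by *EPRS1*, *IARS1*, *KARS1*, *LARS1*, *MARS1*, *QARS1* and *RARS1* are held together with scaffold proteins in the multi-synthetase complex. Of these 7 genes, 4 were lower in the LN pool and 2 were past the threshold on the higher side, *IARS1* and *MARS1*, and the median log2 LN/HN was -0.11. Of the 11 cytosolic genes with a value whose enzymes are outside this complex, 10 were higher and 6 past the threshold on the higher side, with a median of 0.34. Only *HARS1* of these 11 was lower. By catalytic class, a division by the fold of the active site, the medians were 0.19 for 8 class I genes and 0.20 for 9 class II genes, *EPRS1* being left out because it holds both. The grouping by complex and by catalytic class was made after the values had been seen and is a description only.

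Among the mitochondrial genes, the values past the threshold rested on dim probes. *HARS2*, the mitochondrial histidine enzyme, was 1.35-fold higher in the LN pool (0.43 on the log2 scale). Its bright probe read 9.57 for HN and 9.85 for LN (0.28), short of the threshold, and its dim probe 3.38 and 3.96 (0.58, with a software error of 0.28). Both probes were thus higher, but the threshold was passed only with the dim one. *HARS1* and *HARS2* are direct neighbours in the gene table, and whether a probe of one also detects the other was not tested. *VARS2*, the mitochondrial valine enzyme, had a log2 LN/HN of -0.51. A probe measured on both arrays was nearly equal (5.60 for HN, 5.54 for LN, log2 LN/HN -0.06). The other read 3.89 for HN and 2.94 for LN, not well above background there, which gave a 1.94-fold lower value. This ratio used the dim LN reading itself, with a software error of 0.38 on the log2 scale, and is not a lower limit. From the probe measured on both arrays alone, *VARS2* was not past the threshold.

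*AARS2*, the mitochondrial alanine enzyme, had a mean log2 LN/HN of 0.10 from probes that differed in sign. Its bright probes gave -0.15 (10.12 for HN, 9.97 for LN) and 0.05 (10.14 and 10.19). A dim probe gave 0.77 (3.54 and 4.31), and another, not well above background on the LN array, gave -0.28 against the detection limit. The other mitochondrial genes were within the threshold. *NARS2* had 0.19 with all 3 probes higher in the LN pool (0.09 to 0.33), and *MARS2* had 0.18 from 1 detected probe. *FARS2* (0.07), *IARS2* (0.02), *TARS2* (-0.03) and *CARS2* (-0.05) were within the SD of a spot. *SARS2* (-0.13, 1 probe) and both probes of *RARS2* (-0.23 and -0.06) were lower, and *WARS2* had -0.20 with its 3 probes all lower (-0.26 to -0.11).

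For 11 amino acids, an enzyme of each compartment had a value, which allowed a comparison within an amino acid. The cytosolic log2 LN/HN was the higher in 9 of the 11 pairs, and the median difference was 0.24. The difference was widest for serine, with 0.58 for *SARS1* against -0.13 for *SARS2*, followed by threonine, with 0.52 for *TARS1* against -0.03 for *TARS2*. Isoleucine (*IARS1* 0.48, *IARS2* 0.02) and cysteine (*CARS1* 0.35, *CARS2* -0.05) also differed by more than 0.32. In these 4 pairs the mitochondrial value lay between -0.13 and 0.02. Alanine, tryptophan and methionine differed by 0.24, 0.24 and 0.21 in the same direction, near the software's error of a single ratio. The difference was 0.02 for phenylalanine, taking the mean of *FARSA* and *FARSB*, and 0.01 for asparagine (*NARS1* 0.20, *NARS2* 0.19). The asparagine values were further apart when the brightest probe of each gene was used (0.41 and 0.15). Arginine ran the other way by -0.10, with *RARS1* and *RARS2* both lower in the LN pool. Histidine was the only amino acid with a mitochondrial value above the cytosolic one by more than 0.32 (-0.53). With the bright probe of *HARS2* alone (0.28) against the single probe of *HARS1* (-0.10) it was still past this difference.

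**Figure D3:**
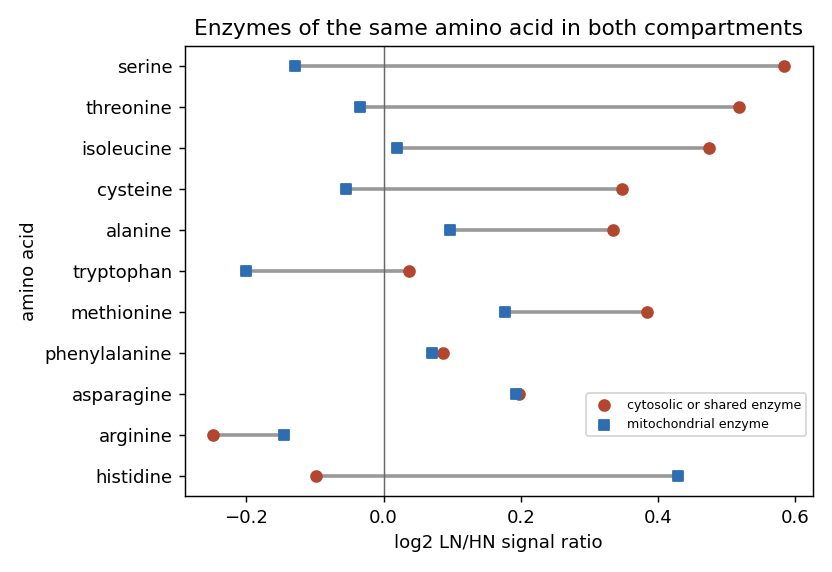
Log2 LN/HN of the cytosolic or shared enzyme (circles) and of the mitochondrial enzyme (squares) for the 11 amino acids with a value in both compartments, ordered by their difference. The circle lies to the right of the square in 9 amino acids, from serine (difference 0.71) to asparagine (0.01), and to the left for arginine and histidine.

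Of a list of 23 other genes of transfer RNA charging and delivery, 22 had a value and none of these was past the threshold. Of the 22, 14 were higher and 8 lower in the LN pool, and the median log2 LN/HN was 0.05. The scaffolds of the multi-synthetase complex had values of -0.04 for *AIMP1*, 0.07 for *AIMP2* and 0.19 for *EEF1E1*. The highest value of this list was that of *XPOT*, the nuclear export receptor of transfer RNA, with 0.30 and all 4 probes higher in the LN pool (0.21 to 0.36). The lowest was that of *EEF1A2*, the form of the elongation factor, made in muscle and nerve cells, that brings charged transfer RNA to the ribosome, with -0.29 from 3 probes that were all lower (-0.43 to -0.18). The ubiquitous form, *EEF1A1*, had 0.08 from 9 probes, and *TUFM*, the mitochondrial counterpart, had -0.05 from 1 probe. *QRSL1*, *GATB* and *GATC*, which together convert glutamate to glutamine on the mitochondrial transfer RNA because mitochondria have no glutamine enzyme of their own, had -0.12, 0.11 and 0.02.

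The order of the class medians was retained under every other processing that was tried. The cytosolic median lay between 0.14 and 0.26 and the mitochondrial one between -0.08 and 0.03, and the median of all genes between -0.04 and 0.01. The values of *IARS1*, *SARS1* and *TARS1* were past the threshold in all 13 alternatives, as was that of *GARS1* in the 12 in which this gene was retained. In contrast, *AARS1* passed in 8, *MARS1* in 9 and *VARS2* in 9 of the 13.

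**Figure D4:**
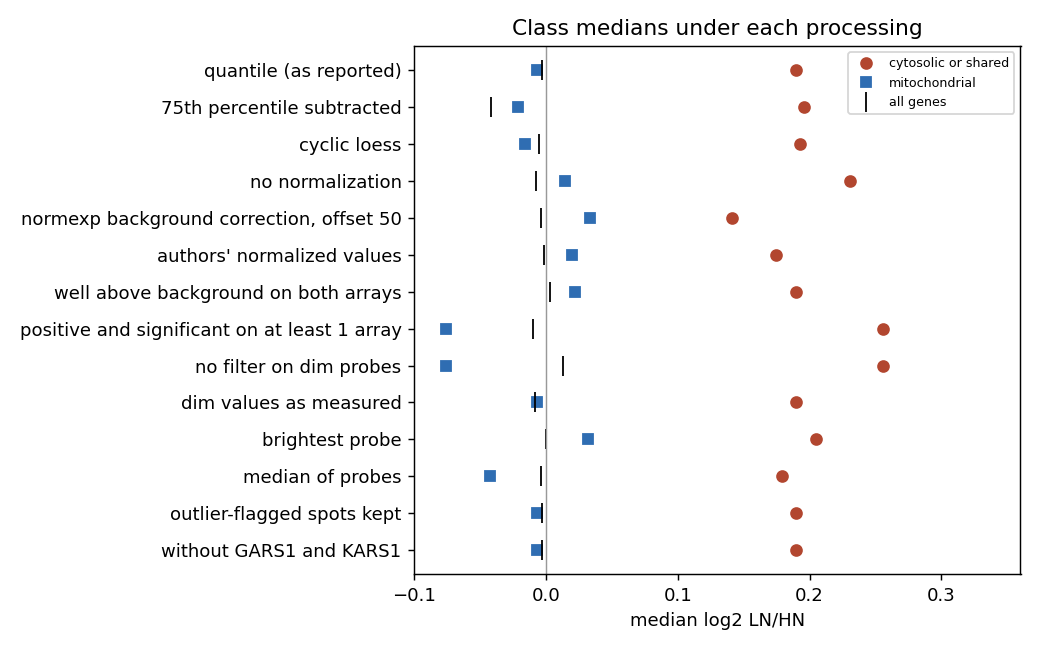
Median log2 LN/HN of the cytosolic or shared genes (circles), the mitochondrial genes (squares) and all genes (vertical ticks) as reported and under 13 alternative settings. The cytosolic median lies to the right of both others in each setting, nearest to the mitochondrial one after the normexp background correction (difference 0.11).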

How the data were processed

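The authors deposited the spot signals of both arrays from Agilent Feature Extraction 11.0.1.1 as intensities corrected for background but not normalized across arrays, along with quality marks and an error for every spot. The authors also deposited log2 values for 30027 probes, quantile-normalized in GeneSpring GX. Their log2 scale was judged from the values, because the table does not state it, and they were used as an alternative.

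Log2 intensities of the 43803 non-control spots were quantile-normalized (limma 3.58.1, R 4.3.3). The 13 spots marked as outliers (none of a synthetase) were removed, and spots of a probe were averaged with Python 3.11.15, numpy 2.4.6 and pandas 2.3.3. Figures were drawn with matplotlib 3.10.9. Where a probe was well above background on 1 array only, the other side took the lowest signal so marked there, or kept its own value where higher. No fold was given where the bright side did not exceed it. The averaging of spots and probes and the folds were tested on simulated data. That test left out the normalization and the rule for probes dim on 1 array only. The number of arrays, 1 per group, limits the precision.

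Accessions were matched to symbols through the RefSeq gene table of ARS-UCD2.0 (26742 probes). The array design refers to UMD 3.1, so no coordinates are given. The members, the lists of other genes and the cell type markers were chosen with earlier results of these data known. All members are given, with full values for those past the threshold, for those whose probes disagreed and for amino acids with both enzymes. Of the other list, the scaffolds, the extremes and examples chosen after their values were seen are named, and some genes of the lists are not reported here.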

Additional observations from a re-analysis of the deposited data

How the results depend on the processing

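In 13 alternatives, the cytosolic and mitochondrial medians each moved by less than the SD of a spot (0.085), and the cytosolic log2 LN/HN was the higher in 8 to 10 of the 11 amino acid pairs. The difference of the class medians, 0.20 as reported, was 0.11 after the normexp background correction, and 0.33 both without a filter on dim probes and with the looser filter of a signal significant over background on either array. The count of cytosolic genes past the threshold (0.32, log2) on the higher side was 8 as reported and 4 after the normexp correction (all genes 1.6% higher, 2.0% lower), and that of genes past it lower was 0 throughout. The normexp correction also left 0 mitochondrial genes past the threshold in either direction, as did the brightest probe of each gene. With the authors' normalized values, or with probes well above background on both arrays only, 0 mitochondrial genes were past it on the lower side. Of 388 values of single genes under these settings, 31 moved by more than the SD of a spot, and none of a gene past the threshold reversed. Within the threshold, *AARS2* ranged from -0.26 to 0.26 and *TARS2* from -0.14 to 0.06. Calls were gained by *NARS1* with the brightest probe (0.41) and by *WARS1* with both looser filters (0.36). The normexp correction used median spot signals. A planned mapping of probes by a gene name column was not run, because the scanner files used here have no such column. No paired analysis was possible because each group has 1 array. Dim probes limit the values of *AARS1*, *HARS2*, *VARS2*, *AARS2* and *TARS2*, among others, and 1 array per group limits all.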
